A study of Mus musculus with 8 samples.

Results

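The integrated stress response and the unfolded protein response were examined in brown adipose tissue (BAT) through 10 genes. The ATF4 branch comprised Atf4, Ddit3, Trib3, Asns, Chac1, Ppp1r15a and Sesn2, and the endoplasmic reticulum (ER) branch comprised Hspa5, Xbp1 and Dnajb9. Every non-control probe whose RefSeq accession belonged to one of these genes was used, which gave 12 probes of the 55681 on the array, for 10 of 21154 genes with a symbol. Atf4 and Dnajb9 had more than 1 probe each. All 12 probes were well above background on all 7 arrays with scanner data, so none was lost to the filter on dim probes.

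BAT was taken from male C57BL/6NCrSlc mice after thoracic aortic constriction (TAC), which narrows the aorta and overloads the left ventricle, or after a sham operation (Sham). Surgery was done at 11 weeks of age and the mice were 13 weeks old at collection, with no other genotype or agent in either group. The labels give 2 weeks after surgery in most fields and 4 weeks in another. Each group held 4 mice, and one-colour Agilent arrays measured their total RNA. Values are log2 intensities relative to the 75th percentile of the array, from scanner data of Sham replicates 2 to 4 and TAC replicates 1 to 4, and Sham replicate 1 was read from the authors' table of all 8 arrays.

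In the integrated stress response, kinases that sense amino acid shortage, haem shortage, viral RNA or ER stress phosphorylate the initiation factor eIF2. General translation then slows while the transcription factor ATF4 is translated, and ATF4 switches on genes of amino acid supply and of feedback control. In the unfolded protein response, the ER sensors PERK, IRE1 and ATF6 answer misfolded protein, PERK through eIF2, IRE1 through splicing of the Xbp1 transcript, and ATF6 through ER chaperone genes. In brown fat the pathways are known to respond to mitochondrial stress and to thermogenic demand. The probes measured transcript level, and the splicing of Xbp1, the phosphorylation of eIF2 and the translation of Atf4 were not measured.

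ATF4 binds a C/EBP-ATF response element (CARE), and ATF6 binds the ER stress element. The 250 bases before the transcription start were searched on both strands for the CARE core TGATGNAA and for the ER stress element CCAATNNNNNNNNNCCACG, in RefSeq promoters of build GRCm38.p6. All 10 genes had a promoter in that table. The 3 promoters with a match are shown because ATF4 and ATF6 are known to act through elements with these letters. The match is in capitals, and each stretch is 100 bases read 5′ to 3′ on the strand of the gene.
Chac1: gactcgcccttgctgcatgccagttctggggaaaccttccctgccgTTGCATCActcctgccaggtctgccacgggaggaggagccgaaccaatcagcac
Asns: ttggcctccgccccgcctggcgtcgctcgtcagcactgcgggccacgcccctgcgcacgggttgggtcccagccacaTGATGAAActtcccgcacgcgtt
Hspa5: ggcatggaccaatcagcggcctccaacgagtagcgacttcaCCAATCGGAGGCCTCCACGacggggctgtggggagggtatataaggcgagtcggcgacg
The Chac1 stretch lies at chr2:119351003-119351102 on the plus strand, and its match, on the opposite strand, starts 193 bases before the start site. The Asns stretch lies at chr6:7693210-7693309 on the minus strand, with the match 23 bases before the start. The Hspa5 stretch lies at chr2:34771984-34772083 on the plus strand, with the match 65 bases before the start.

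The CARE core was present in 2 of the 7 ATF4 branch promoters and in 0 of the 3 ER branch promoters, against 3.45% of all 32851 promoters. In other genes of the pathways it was present in 5 of 16 promoters of targets of ATF4 or CHOP (encoded by Ddit3) and in 3 of 8 of aminoacyl-tRNA synthetases. On the ER side it was present in 1 of 16 promoters of other ER chaperones and folding enzymes and in 1 of 12 of ER-associated degradation. The ER stress element was present in Hspa5 alone of the 10 genes, against 0.113% of all promoters. It was also present in 7 of 16 promoters of other ER chaperones and folding enzymes, namely Hsp90b1, Calr, Canx, Pdia6, Dnajc3, Creld2 and Ero1b. No gene of the lists held both motifs. A match describes these letters only and does not show binding.

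All 7 scanner arrays were on 1 slide and in 1 scan, with Sham in the first row and TAC in the second, so place on the slide and surgery cannot be told apart. Between 54.5% and 64.3% of spots were well above background. TAC replicate 1 stood apart in cell type markers. The mean of 8 brown adipocyte markers, as a log2 difference from the Sham mean, was -1.60 in TAC replicate 1 against -0.74 to -0.10 in the other TAC arrays, and the mean of 6 macrophage markers was 1.02 against -0.48 to -0.22. Ucp1, the defining gene of the tissue, was abundant on every array, at 8.37 to 9.70. In whole tissue, fewer cells of a type and less RNA per cell cannot be told apart.

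None of the 10 genes differed between TAC and Sham after adjustment over 33364 probes with limma and the Benjamini-Hochberg method. The same held for every probe on the array, with 0.0% called in either direction on 7 arrays and 0.0% in the table of 8 arrays. The smallest adjusted p-value over all probes was 0.0575 on 7 arrays and 0.143 on 8, and with 3 or 4 arrays a group small differences could not be resolved. At an unadjusted p under 0.05, 4.38% of all probes were higher in TAC and 8.43% were lower on 7 arrays, and 4.65% and 9.56% in the table of 8. Of the 10 genes, 0 were higher and 1, Ppp1r15a, was lower on 7 arrays, whereas Ddit3 was higher and Ppp1r15a lower in the table of 8. These counts lay near the shares over all probes.

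Atf4 encodes the transcription factor at the centre of the response. Its brighter probe read 5.85, 6.58 and 6.27 in Sham replicates 2 to 4 and 5.51, 6.03, 6.38 and 5.82 in TAC replicates 1 to 4. The groups overlapped, with the highest array in Sham and the lowest in TAC. The difference, TAC minus Sham, was -0.30 (SE 0.25, 95% interval -0.88 to 0.28, limma adjusted p = 0.626). Its size turned on single arrays, from -0.12 without Sham replicate 3 and -0.16 without TAC replicate 1 to -0.49 without Sham replicate 2. In the table of 8 arrays, where Sham replicate 1 read 6.02 and was the lowest Sham array, the difference was -0.21 (SE 0.23), and -0.071 without TAC replicate 1. The dimmer Atf4 probe gave a difference of -0.37 (SE 0.19, adjusted p = 0.460), with TAC at 0.24, 0.35, 0.95 and 0.44 against 0.67, 1.08 and 0.85 in Sham. On that probe only TAC replicate 3 reached the values of these Sham arrays, and in the table TAC replicate 4, at 0.61, also lay above Sham replicate 1, at 0.58.

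**Figure D1:**
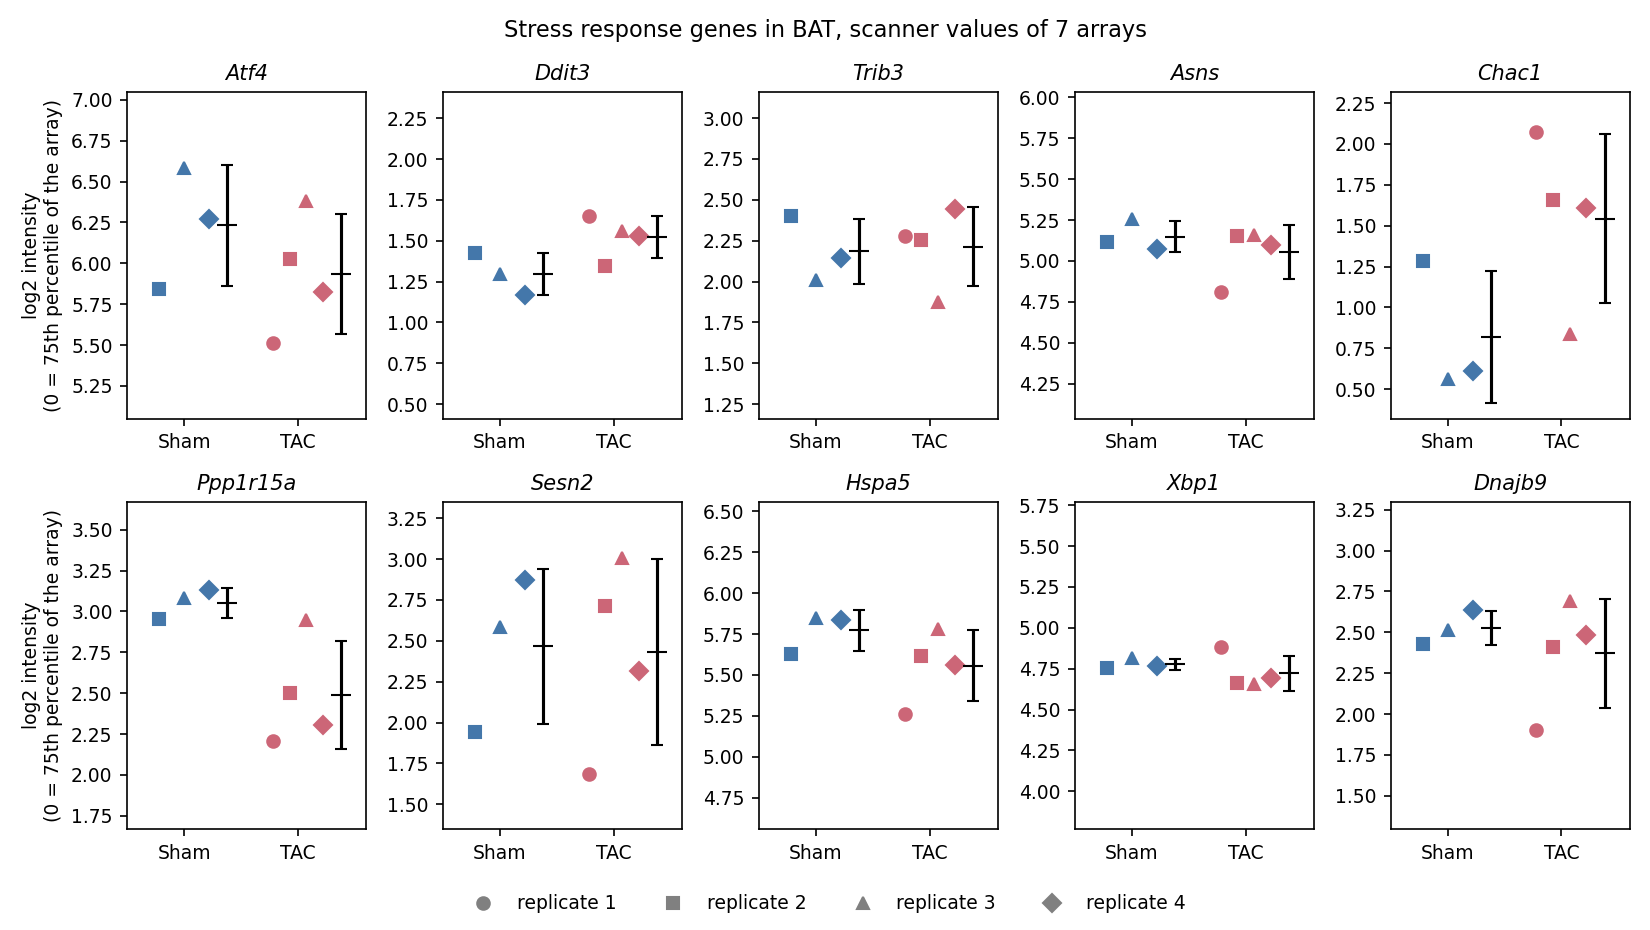
Level of each of the 10 genes on the 7 scanner arrays, as log2 intensity relative to the 75th percentile of the array (vertical axis), for Sham (blue) and TAC (red). Symbols are replicates, and the bar beside each group is the mean with the SD; Ppp1r15a alone has every TAC array below every Sham array.

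Ddit3 encodes CHOP, a C/EBP family factor that is known to promote cell death under lasting stress. It read 1.42, 1.30 and 1.17 in Sham and 1.65, 1.34, 1.56 and 1.53 in TAC. Only TAC replicate 2 fell within the Sham range, below Sham replicate 2. The difference was 0.23 (SE 0.11, interval -0.027 to 0.48, adjusted p = 0.435). In the authors' table Sham replicate 1 had the lowest Ddit3 level of all 8 arrays, at 1.13 against 1.36 to 1.63 in the other Sham arrays and 1.52 to 1.84 in TAC. With it the difference was 0.30 (SE 0.12, interval 0.018 to 0.59, limma adjusted p = 0.329).

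Trib3 encodes a pseudokinase induced through ATF4 and CHOP that restrains them in turn. It read 2.40, 2.01 and 2.15 in Sham and 2.28, 2.25, 1.87 and 2.44 in TAC, so that the TAC arrays spanned the whole Sham range. The difference was 0.026 (SE 0.16, interval -0.35 to 0.40, adjusted p = 0.956). Sham replicate 1 was the highest array in the table, at 2.67, and the difference over 8 arrays was -0.061 (SE 0.15, adjusted p = 0.880). The direction for Trib3 therefore turned with 1 array.

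Asns encodes asparagine synthetase, which makes asparagine from aspartate and glutamine. It read 5.12, 5.26 and 5.07 in Sham and 4.81, 5.15, 5.16 and 5.10 in TAC. TAC replicate 1 lay below all other arrays, and the other TAC arrays lay within the Sham range. The difference was -0.093 (SE 0.11, interval -0.36 to 0.18, adjusted p = 0.750), and -0.012 (SE 0.082) without TAC replicate 1.

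Chac1 encodes an enzyme that degrades glutathione and had the largest difference of the 10 genes on 7 arrays. It read 1.28, 0.56 and 0.61 in Sham and 2.08, 1.66, 0.84 and 1.61 in TAC. In TAC, 3 of 4 arrays lay above every Sham array, and replicate 3 lay below Sham replicate 2. The mean was 0.82 ± 0.40 (SD, n = 3) in Sham and 1.54 ± 0.52 (SD, n = 4) in TAC. The difference was 0.73 (SE 0.31, interval -0.013 to 1.46, limma adjusted p = 0.398), a 1.65-fold higher intensity. Sham replicate 1 read 1.93 in the table, where the TAC arrays read 2.27, 1.84, 1.02 and 1.78, so that TAC replicate 1 alone lay above every Sham array.

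Over 8 arrays the Chac1 difference was 0.48 (SE 0.34, interval -0.29 to 1.25, adjusted p = 0.535). Chac1 was also among the most variable genes within a group. Its SD in the table was 0.57 in Sham and 0.52 in TAC, at the 95.9th and 87.7th percentiles of all probes, for which the median SDs were 0.16 and 0.19.

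Ppp1r15a encodes GADD34, the phosphatase subunit that removes the phosphate from eIF2 and so ends the response. It read 2.95, 3.08 and 3.13 in Sham and 2.21, 2.50, 2.95 and 2.31 in TAC. Every TAC array lay below every Sham array, as 10.4% of all probes did, but TAC replicate 3 lay less than 0.01 below Sham replicate 2. The mean was 3.05 ± 0.092 (SD, n = 3) in Sham and 2.49 ± 0.33 (SD, n = 4) in TAC. The difference was -0.57 (SE 0.18, interval -0.99 to -0.14, limma adjusted p = 0.307), a 1.48-fold higher intensity in Sham.

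In the table of 8 arrays, Sham replicate 1 read 2.90 for Ppp1r15a and TAC replicate 3 read 3.13, so that the groups overlapped. There the difference was -0.49 (SE 0.17, interval -0.89 to -0.095, adjusted p = 0.280). Without TAC replicate 1 it was -0.47 (SE 0.17, adjusted p = 0.348) on 7 arrays, and without TAC replicate 3 it was -0.72 (SE 0.12, adjusted p = 0.322). Its direction was the same on all these sets of arrays.

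Sesn2 encodes sestrin 2, a leucine-binding protein that restrains mTORC1. It read 1.94, 2.59 and 2.87 in Sham and 1.69, 2.71, 3.01 and 2.31 in TAC. Both groups spread over about the same range, with TAC holding the lowest and the highest array. The difference was -0.037 (SE 0.35, interval -0.86 to 0.79, adjusted p = 0.972) and turned to 0.083 (SE 0.32, adjusted p = 0.926) over 8 arrays. The SD in the table was 0.47 in Sham and 0.57 in TAC, at the 93.0th and 89.4th percentiles of all probes.

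**Figure D2:**
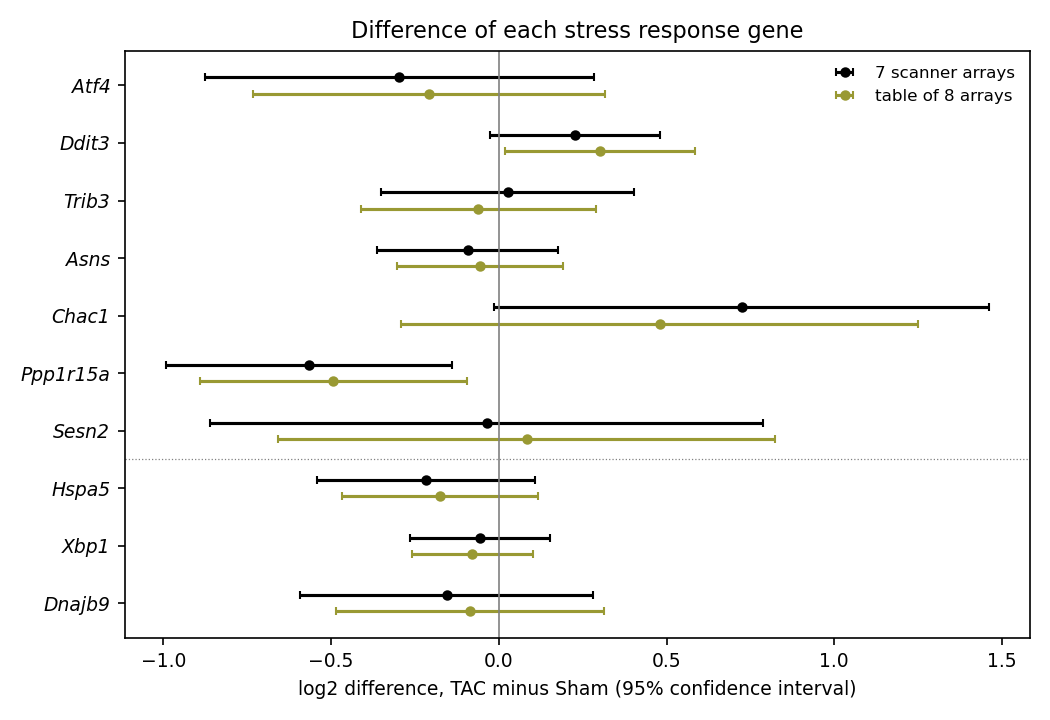
Difference of each gene, TAC minus Sham on the log2 scale (horizontal axis), with its 95% confidence interval, on 7 scanner arrays (black) and in the table of 8 arrays (olive); the dotted line parts the ATF4 branch from the ER branch. All intervals but those of Ppp1r15a, and of Ddit3 in the table of 8 arrays, include 0.

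Hspa5 encodes BiP, the main ER chaperone and the gene with the ER stress element printed above. It read 5.63, 5.85 and 5.84 in Sham and 5.26, 5.62, 5.78 and 5.56 in TAC. In TAC, 3 of 4 arrays lay below every Sham array, and replicate 3 lay within the Sham range. The difference was -0.22 (SE 0.14, interval -0.54 to 0.11, adjusted p = 0.527), and -0.12 (SE 0.10, adjusted p = 0.645) without TAC replicate 1. In the table of 8 arrays it was -0.18 (SE 0.13, adjusted p = 0.552), with Sham replicate 1 at 5.74, below 2 of the 4 TAC arrays.

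Xbp1 encodes the transcription factor made by the IRE1 arm, and its level here does not tell the spliced from the unspliced transcript. It read 4.75, 4.82 and 4.76 in Sham and 4.88, 4.66, 4.65 and 4.69 in TAC. TAC replicate 1 was the highest of the 7 arrays, and the other TAC arrays lay below all Sham arrays. The difference was -0.057 (SE 0.089, interval -0.27 to 0.15, adjusted p = 0.804), and -0.11 (SE 0.069, adjusted p = 0.535) without TAC replicate 1. Xbp1 was the steadiest gene of the set in Sham, with an SD of 0.027 over 4 arrays in the table, at the 0.836th percentile of all probes. The 95% interval over 8 arrays was -0.26 to 0.10, the narrowest of the 10 genes.

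Dnajb9 encodes ERdj4, a co-chaperone of BiP. Its brighter probe read 2.43, 2.51 and 2.64 in Sham and 1.90, 2.41, 2.69 and 2.48 in TAC. TAC again held the lowest array, replicate 1, and the highest, replicate 3. The difference was -0.16 (SE 0.19, interval -0.59 to 0.28, adjusted p = 0.740), and 0.0010 without TAC replicate 1 (adjusted p = 0.998). The dimmer probe had the same lowest and highest arrays, at -1.84 and -0.46, and a difference of -0.18 (SE 0.31, adjusted p = 0.822).

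By branch, 3 of the 7 ATF4 branch genes had a higher mean in TAC and 4 a lower one, with a median difference of -0.037. All 3 ER branch genes had a lower mean in TAC, with a median of -0.16. Over all probes tested the median difference was -0.032, and 55.8% were lower in TAC. In the table of 8 arrays the medians were -0.056 in the ATF4 branch, -0.086 in the ER branch and -0.039 over all probes. The ATF4 branch thus held both the largest positive difference, Chac1, and the largest negative difference, Ppp1r15a, while the ER branch genes lay between -0.22 and -0.057. No test of the difference between the branches was made.

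The mean of the 3 ER branch genes, relative to the Sham mean, was -0.088, 0.034 and 0.054 in Sham replicates 2 to 4 and -0.34, -0.13, 0.015 and -0.12 in TAC replicates 1 to 4. TAC replicate 1 was the lowest array, and TAC replicate 3 lay within the Sham range. The mean of the 7 ATF4 branch genes was -0.034, 0.025 and 0.0091 in Sham and -0.14, 0.064, 0.080 and -0.011 in TAC. TAC replicate 1 was the lowest array for this branch also, but its mean joined genes that lay far to either side.

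The order of the arrays within a group recurred among these genes. How often each array was the lowest or highest over all probes was not counted, so this order is not shown to be particular to these genes. In the table, TAC replicate 1 was the lowest TAC array for 6 of the 10 genes, Atf4, Asns, Ppp1r15a, Sesn2, Hspa5 and Dnajb9, and the highest for Ddit3, Chac1 and Xbp1. TAC replicate 3 was the highest TAC array for those same 6 genes and the lowest for Trib3, Chac1 and Xbp1. Among Sham arrays, replicate 1 was the lowest for 7 genes, the same 6 and Ddit3, and the highest for Trib3 and Chac1. Chac1 thus lay opposite to Atf4 on these arrays: in each group the array with the lowest Atf4 level had the highest Chac1 level, and the array with the highest Atf4 level the lowest Chac1 level.

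**Figure D3:**
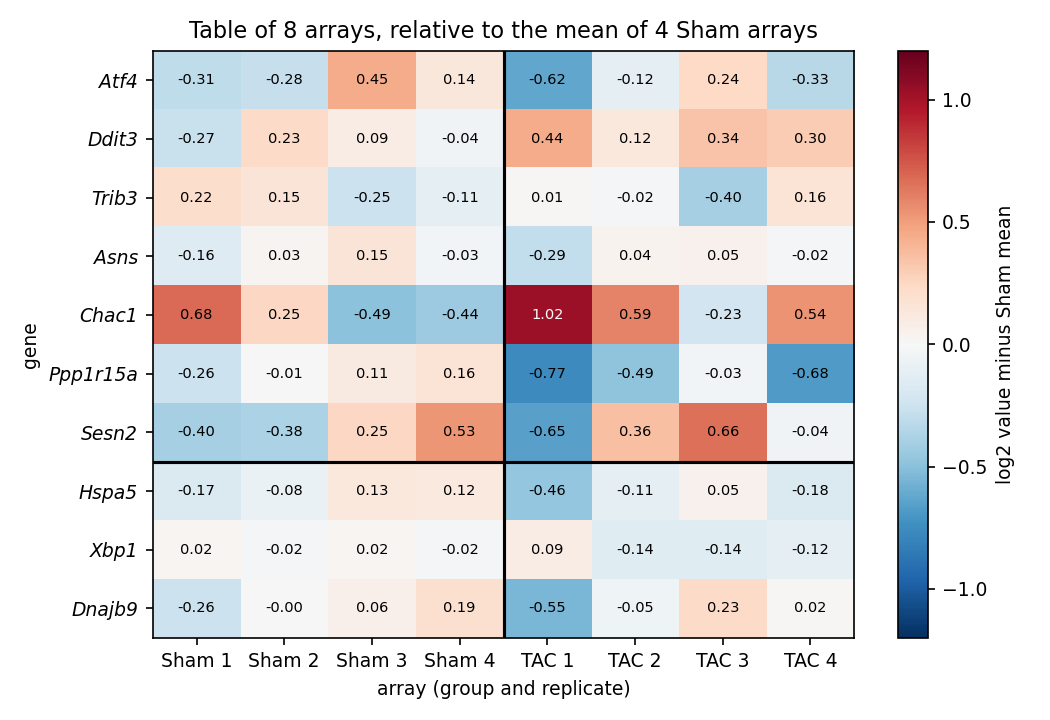
Value of each gene (rows) on each of the 8 arrays of the authors' table (columns), as log2 value minus the mean of the 4 Sham arrays; red is higher and blue is lower. TAC replicate 1 holds the highest Chac1 value, at 1.02, and the lowest Ppp1r15a value, at -0.77.

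The order of the TAC arrays was also that of the brown adipocyte markers at its ends. TAC replicate 1 had the lowest mean of these markers, at -1.60, and TAC replicate 3 the highest, at -0.10. TAC replicate 2 lay at -0.35 and replicate 4 at -0.74, and the Sham arrays lay between -0.23 and 0.25. The 6 skeletal muscle markers were at 1.85, 1.36, -0.46 and 1.80 in TAC and at -0.86, 0.95 and -0.091 in Sham. Jchain and Sdc1 were the only 2 of 7 listed B cell and plasma cell markers that passed the filter, and their mean was 1.09, 1.20, 0.18 and 0.49 in TAC against -0.11 to 0.13 in Sham replicates 2 to 4. The 4 T cell markers were at 0.74 in TAC replicate 1 and at -0.31 to -0.054 in the other TAC arrays. The 4 endothelial markers lay between -0.099 and 0.069 on all 7 arrays. In the table, Sham replicate 1 had the lowest brown adipocyte mean of the Sham arrays, at -0.18 against -0.17 to 0.30. Relative to the mean of all 4 Sham arrays, it had the highest mean of Jchain and Sdc1 of all 8 arrays, at 1.32 against -0.28 to 0.74 in TAC. It was also at 0.66 for the skeletal muscle markers and at 0.40 for the T cell markers. The part of cell composition in the gene differences was not tested.

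Other genes of the pathways were counted from 9 lists with 131 genes, and 0 genes in any list passed the adjusted threshold. The eIF2 kinases and eIF2 factors lay close to 0, with 7 of 16 genes higher and 9 lower in TAC and a median difference of -0.071. None reached an unadjusted p under 0.05 through the probe that stood for the gene. Through those probes the smallest p-values belonged to Impact, an inhibitor of the kinase GCN2, at -0.36 (SE 0.16, adjusted p = 0.407), and to Gcn1, its activator, at 0.14 (SE 0.079, adjusted p = 0.488). Next was Eif2s2, the beta subunit of eIF2, at -0.17 (SE 0.11, adjusted p = 0.524). The dimmer Gcn1 probe was at 0.23 (SE 0.087, limma unadjusted p = 0.0301, adjusted p = 0.349). On it every TAC array lay above every Sham array, as for 5.59% of all probes on 7 arrays and 3.53% on 8. The genes that start the response thus had no called difference.

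Of the other targets of ATF4 and CHOP, 13 of 19 genes had a lower mean in TAC and 6 a higher one, with a median of -0.16. At an unadjusted p under 0.05, 5 were lower and 1 was higher, against 8.43% and 4.38% of all probes. Fgf21, a hormone under the control of ATF4, was not well above background on any array.

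Atf5, a close relative of Atf4 that acts in the mitochondrial stress response, had the largest difference in this list. It read 6.48, 7.28 and 7.40 in Sham and 5.82, 6.25, 5.89 and 6.07 in TAC. Every TAC array lay below every Sham array, as for 10.4% of all probes on 7 arrays. The difference was -1.05 (SE 0.24, interval -1.60 to -0.49, limma adjusted p = 0.199), a 2.07-fold higher intensity in Sham. In the table of 8 arrays the groups did not overlap either, as was so for 6.29% of all probes in that direction, and the difference was -0.88 (adjusted p = 0.237). Tnfrsf10b, the death receptor induced by CHOP, also lay lower on every TAC array, at -0.34 (SE 0.10, adjusted p = 0.285). Of the 5 lower genes the others, named here after their values were seen, were Atf3, Cebpg and Bbc3. The transcription factors Atf3 and Cebpg were at -0.91 (SE 0.37) and -0.25 (SE 0.087), and the cell death gene Bbc3 at -0.57 (SE 0.20). For Atf3 the groups overlapped. In the table of 8 arrays, Sham replicate 1 read -1.32 for Atf3, and the difference was -0.66 (SE 0.40, limma adjusted p = 0.476). Cth, an enzyme of cysteine synthesis, was at 0.30 (SE 0.10, adjusted p = 0.322) on its brighter probe. There every TAC array lay above every Sham array, as for 5.59% of all probes. The dimmer Cth probe gave 0.24 (SE 0.0995, adjusted p = 0.375), and on it the groups overlapped.

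The aminoacyl-tRNA synthetases, which charge transfer RNA and include many ATF4 targets, had 6 of 12 genes on either side and a median of 0.0046. Gars was at -0.28 (SE 0.10, adjusted p = 0.349), Iars at 0.25 (SE 0.11, adjusted p = 0.398) and Lars at -0.13 (SE 0.083, adjusted p = 0.542). Only Gars had an unadjusted p under 0.05 on 7 arrays. In the table of 8 arrays Gars was lower and Iars higher at that threshold, against 9.56% and 4.65% of all probes.

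Genes of amino acid transport and serine synthesis were higher in TAC for 10 of 15 and lower for 5, with a median of 0.14. In the table of 8 arrays 9 were higher and 6 lower, with a median of 0.062. At an unadjusted p under 0.05, 2 were higher and 1 was lower on 7 arrays, against 4.38% and 8.43% of all probes. Phgdh, the first enzyme of serine synthesis, read 1.26, 1.27 and 1.61 in Sham and 3.56, 2.08, 2.75 and 2.33 in TAC. All TAC arrays lay above the Sham arrays, as for 5.59% of all probes, with TAC replicate 1 farthest. The difference was 1.30 (SE 0.34, interval 0.50 to 2.10, limma adjusted p = 0.249), and the other Phgdh probe gave 1.34 (adjusted p = 0.226). In the table, Sham replicate 1 read 2.27 for Phgdh, and the groups overlapped on the brighter probe but not on the other. Of all probes, 3.53% had every TAC array above every Sham array there.

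Psph, the last enzyme of the same serine pathway, went the other way. It read 2.43, 2.59 and 2.19 in Sham and 1.56, 2.03, 1.89 and 1.84 in TAC, with no overlap between the groups on either set of arrays. The same held in that direction for 10.4% of all probes on 7 arrays and for 6.29% on 8. The difference was -0.57 (SE 0.14, interval -0.92 to -0.23, adjusted p = 0.232), and the other Psph probe gave -0.70 (SE 0.12, adjusted p = 0.196). Slc7a3, a carrier of cationic amino acids, was at 0.55 (SE 0.23, adjusted p = 0.389). Slc7a11, the cystine carrier, was not well above background on any array.

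On the ER side, the genes of the stress sensors and their partners were higher for 5 of 8 and lower for 3, with a median of 0.12. On 7 arrays 0 had an unadjusted p under 0.05. Ern1, which encodes IRE1, was at 0.25 (SE 0.11, adjusted p = 0.403) with every TAC array above every Sham array, as were 5.59% of all probes on 7 arrays and 3.53% on 8. In the table of 8 arrays Ern1 alone of the list had an unadjusted p under 0.05, and 4.65% of all probes were higher at that threshold. Creb3l2, a relative of ATF6, was at 0.25 (SE 0.15, adjusted p = 0.511), and Rtcb, the ligase that joins spliced Xbp1, was at 0.13 (SE 0.079, adjusted p = 0.521).

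The other ER chaperones and folding enzymes were lower in TAC for 12 of 19 genes, with a median of -0.026. Manf, a secreted factor induced by ER stress, read 1.50, 1.58 and 1.58 in Sham and 1.07, 1.18, 1.11 and 0.98 in TAC. The groups were well apart on 7 arrays and did not overlap on 8. Every TAC array lay below every Sham array for 10.4% of all probes on 7 arrays and for 6.29% on 8. The difference was -0.47 (SE 0.082, interval -0.66 to -0.28, limma adjusted p = 0.196), and Manf was the only gene of this list at an unadjusted p under 0.05. Creld2, also induced by ER stress, was at -0.24 (SE 0.13, adjusted p = 0.461), and Dnajc3, which encodes an inhibitor of PERK, was at -0.21 (SE 0.11, adjusted p = 0.482).

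In ER-associated degradation, which moves misfolded protein out of the ER, 11 of 14 genes were lower and 3 higher, with a median of -0.093. At an unadjusted p under 0.05, 1 gene was lower and 0 were higher on 7 arrays, a share of the list near the 8.43% of all probes that were lower. In the table of 8 arrays 1 was lower and 1 higher. The lower gene was Derl1, a membrane part of that exit route. It read 4.12, 4.52 and 4.43 in Sham and 3.27, 3.66, 3.70 and 3.66 in TAC. Every TAC array lay below every Sham array, as did 10.4% of all probes, and also in the table of 8, as did 6.29%. The difference was -0.79 (SE 0.15, interval -1.14 to -0.43, limma adjusted p = 0.197), whereas the dimmer Derl1 probe gave -0.21 (SE 0.11, adjusted p = 0.452). The lectin Os9 was at 0.18 (SE 0.082, adjusted p = 0.428) and Derl3 at 0.37 (SE 0.19, adjusted p = 0.461).

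The 10 genes of the members and lists with an ER stress element lay on both sides of 0. Their differences ran from -0.24 to 0.37 with a median of -0.12, and 6 were lower and 4 higher in TAC. Of the 15 genes with a CARE core, 12 were tested, and 6 lay on either side with a median of 0.0029 and a range of -0.91 to 0.73. The printed promoters show the same spread, since Chac1 was at 0.73 and Asns at -0.093.

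**Figure D4:**
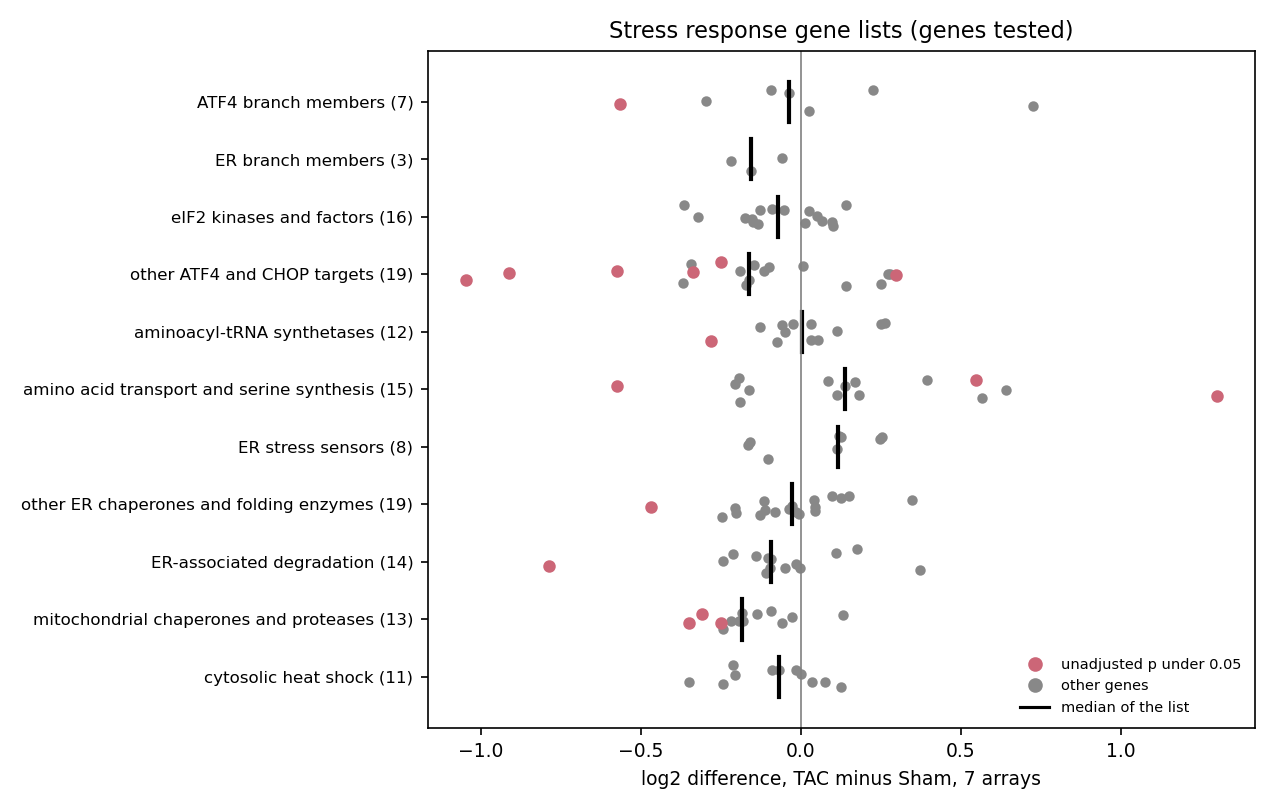
Difference of each tested gene, TAC minus Sham on the log2 scale over 7 arrays (horizontal axis), for the 2 branches and 9 pathway lists (vertical axis, with the number of genes tested). Red points have an unadjusted p under 0.05, and black bars are medians, which run from -0.18 in the mitochondrial list to 0.14 in amino acid transport and serine synthesis.

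Mitochondrial chaperones and proteases, which keep the proteins of the organelle folded and can feed the ATF4 branch, were lower in TAC for 12 of 13 genes, with a median of -0.18. Over all probes 55.8% were lower. At an unadjusted p under 0.05, 3 were lower and 0 higher, against 8.43% and 4.38% of all probes. These were Oma1, the protease that passes mitochondrial stress to the ATF4 branch, at -0.25 (SE 0.094, adjusted p = 0.354), Lonp1, a matrix protease, at -0.35 (SE 0.13, adjusted p = 0.354), and Spg7, an inner membrane protease, at -0.31 (SE 0.13, adjusted p = 0.388). Every TAC array lay below every Sham array for all 3 genes on 7 arrays, as for 10.4% of all probes, but the groups overlapped once Sham replicate 1 was added. In the table of 8 arrays the median of the list was -0.13, and 1 gene, Lonp1, was lower at an unadjusted p under 0.05.

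Cytosolic heat shock genes were lower for 7 of 11 and higher for 4 on 7 arrays, with a median of -0.068, and the median was 0.033 over 8 arrays. None had an unadjusted p under 0.05. The chaperone Hsp90aa1 was at -0.35 (SE 0.24, adjusted p = 0.559), the co-chaperone Dnajb1 at -0.21 (SE 0.21, adjusted p = 0.679) and the heat shock factor Hsf1 at 0.13 (SE 0.13, adjusted p = 0.689).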

How the data were processed

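The authors hybridised Cy3-labelled RNA of each mouse to a one-colour Agilent array and extracted spots with Feature Extraction 10.7.1.1, per the labels. The deposited scanner files hold the processed signal as an intensity for 7 arrays. The authors' table holds linear intensities of all 8 arrays, with a 75th percentile of 1.002 to 1.004 and a median of 0.091 to 0.098 on each. They matched the scanner intensities divided by 1 constant per array for at least 99.79% of bright probes (within 1%), and log2 was taken here of both deposited intensities. The scale of Sham replicate 1 could not be checked, since its scanner data were not analysed here, and levels from the table and the scanner data are on scales of different origin.

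Control spots and outlier spots were left out, spots of 1 probe were averaged, and log2(intensity) was centred on the 75th percentile. A probe was tested if well above background on at least 3 of 7 arrays and measured on at least 2 a group (33364 probes). TAC was compared with Sham by limma 3.58.1 in R 4.3.3, without covariates, with Benjamini-Hochberg adjustment at 0.05. The fit was tested on simulated data. The study's methods do not describe the arrays, and they name a 2-tailed Student's t-test for other data. That test was an alternative here, as were normexp, median and quantile scaling, other filters, a replicate block and leaving out each array.

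Probes were named through RefSeq accessions (50.3% of probes had a symbol), and the probe with the highest mean stood for a gene. Named genes were the 10 members and, of each pathway list, the 3 genes with the smallest p-value. The members and lists were chosen with earlier results of these data known. The labels call the samples independent, and p-values measure the spread between these samples only. In the table, 1 of 4 pairs of same-numbered arrays had deviations with a correlation over 0.1, and none of 3 had on the scanner arrays, so the numbers were not taken as pairs. The number of arrays limits the precision. Some marker genes are not reported here.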

Additional observations from a re-analysis of the deposited data

Results flagged for a closer look

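In 82 groups of 4 arrays examined, 1 array stood far from the others in 4. Chance alone flags about 1 group in 20, so the number flagged lay near that rate. In TAC, replicate 1 had an Xbp1 level of 4.88 against 4.65 to 4.69 in the other arrays, a gap of 0.844 of the range. TAC replicate 1 also stood apart for Creld2, at 2.36 against 2.72 to 2.76 (gap 0.909), and for Derl1, at 3.27 against 3.66 to 3.70 (gap 0.893). In Sham, replicate 4 had a Slc7a3 level of -3.32 in the authors' table against -2.68 to -2.60 (gap 0.888). TAC replicate 1 was thus the array apart in 3 of the 4 groups, high for Xbp1 and low for Creld2 and Derl1.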

How the results depend on the processing

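No value for the 10 genes passed the adjusted threshold under any of 20 alternatives, the smallest adjusted p being 0.229, and 207 of 230 values kept their direction. For the named pathway genes 519 of 520 values kept their direction, and the smallest adjusted p was 0.0747. Over all probes 0 were called on 7 arrays, but 7 were called higher and 1 lower without TAC replicate 4 (range 0 to 7 and 0 to 1 on leaving out each array), and 1 was called lower with normexp and with median centring. A Student's t-test, named in the methods for other data, gave 1602 probes higher and 2587 lower at an unadjusted p under 0.05. After Benjamini-Hochberg adjustment it gave 0. On leaving out each array the unadjusted counts ran from 893 to 1562 higher and from 1602 to 2995 lower, both lowest without Sham replicate 3, and the causes were not tested.

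The count of genes higher at an unadjusted p under 0.05 went from 0 to 2 with normexp (Ddit3 and Chac1), and to 1 in the table of 8 arrays (Ddit3), with a filter on every array (Chac1) and with the replicate block on 7 or 8 arrays (Chac1 in each). It ran from 0 to 1 on leaving out each array, with Chac1 without Sham replicate 2 or TAC replicate 3 and Ddit3 without TAC replicate 2. The count of lower genes, Ppp1r15a alone, went to 0 in the table less TAC replicate 1, and ran from 0 to 1 on leaving out each array, being 0 without Sham replicate 4. On leaving out each array the ER branch median ran from -0.26 without TAC replicate 3 to -0.10 without Sham replicate 4, and it was -0.086 in the table of 8 and -0.081 in that table less TAC replicate 1. The ATF4 branch median changed sign, to 0.018 with quantile normalization, 0.0046 with the block on 7 arrays and 0.023 in the table less TAC replicate 1. On leaving out each array it ran from -0.13 without TAC replicate 3 to 0.0060 without Sham replicate 4.

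The sign changed for Trib3, Sesn2, Dnajb9, Asns, Xbp1 and Dnajb1. Trib3 was at -0.0035 with median centring, -0.061 in the table of 8 with or without the replicate block, -0.085 in that table less TAC replicate 1, and -0.062 to 0.14 on leaving out each array. Sesn2 was at 0.018 with quantile normalization, 0.083 in the table of 8 with or without the block, 0.21 with the block on 7 arrays, 0.33 in the table less TAC replicate 1, and -0.30 to 0.21 on leaving out each array. Dnajb9 was at 0.0010 with the block on 7 arrays, 0.068 in the table less TAC replicate 1 and -0.26 to 0.0010 on leaving out each array, and its dimmer probe at 0.075, 0.11 and -0.38 to 0.075. In the table less TAC replicate 1, Asns was at 0.023 and Dnajb1 at 0.020, and Xbp1 was at 0.045 with quantile normalization. The causes were not tested. The replicate block on 7 arrays leaves TAC replicate 1 without a partner, and the deviations of same-numbered arrays had correlations of -0.026 to 0.0017 on 7 arrays and, in the table, of 0.27 for replicate 1 and 0.020 to 0.056 for the others. With the block the Chac1 difference in the table kept its value of 0.48, and its SE went from 0.34 to 0.15 (adjusted p = 0.272). The SE also fell for Atf4 (0.23 to 0.12), Sesn2 (0.32 to 0.24), Dnajb9 (0.17 to 0.10), Trib3, Asns, Ppp1r15a and Hspa5. It rose for Ddit3 (0.12 to 0.15) and Xbp1 (0.079 to 0.082).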
